A study of Mus musculus with 3 samples.

Results

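The 9 genes described here encode carriers that move amino acids and small peptides across the gut epithelium: Slc6a19, Slc6a14, Slc6a20a, Slc3a1, Slc7a9, Slc7a8, Slc3a2, Slc1a5 and Slc15a1. They were chosen by symbol, with their levels in these libraries already known, and all 9 were found among the 32285 genes of the deposited matrices. Single-cell RNA libraries were made in droplets from the colon of germ-free mice, which carry no microbes. A barcode names the droplet a read came from, and a molecular tag (UMI) lets each transcript be counted once. There was 1 library for each of 3 groups: mice colonized with the BT mutant, mice colonized with BT WT, and mice given PBS, all of them germ-free beforehand. The labels do not spell out BT, name the mutation or state the mouse strain, age, number of animals pooled or time after colonization. With 1 library per group there is no replicate and no test. Each ratio compares the libraries named, and a difference between treatments cannot be told apart from a difference in animals, gut position or cell preparation. The intervals in parentheses are exact 95% intervals of the counts (Poisson for levels, conditional binomial for ratios, Clopper-Pearson for shares) and cover counting error only.

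Dietary protein reaches the absorptive epithelium as free amino acids and as dipeptides and tripeptides. Apical carriers in the brush border take them up from the lumen, and basolateral exchangers pass amino acids on to the blood or bring them in for the cell's own use. The small intestine carries most of this uptake. The colon is known for lower levels of most of these carriers and for a few of its own, such as Slc6a14. Several carriers work as pairs: the heavy chain Slc3a1 brings the light chain Slc7a9 to the apical membrane, and the heavy chain Slc3a2 does the same for Slc7a8 on the basolateral side.

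The deposited libraries held 54943483, 55436776 and 42003444 UMIs over 8195, 8829 and 4425 barcodes in BT mutant, BT WT and PBS. Barcodes with at least 300 genes and at most 25% mitochondrial UMIs were kept, which left 6138, 7070 and 3198 cells. Clustering and marker genes gave 3380 colonocyte-like cells in the BT mutant library, 3409 in BT WT and 515 in PBS. Their median depths were 3494, 4035 and 21236 UMIs. Of the 515 PBS cells, 339 (65.8%) formed cluster 13, which held no cell of the other libraries and had a median of 24059 UMIs, so a cell state and a property of that library cannot be told apart. Another 686 shallow PBS cells, with 22 BT mutant and 41 BT WT cells, made up cluster 5, which scored for colonocyte markers but stayed unnamed for its median of 853 UMIs. Pairs of libraries shared 13 (BT mutant and BT WT), 7 (BT WT and PBS) and 6 (BT mutant and PBS) barcodes among kept cells. Because the PBS class rests on deeper cells and on a cluster of its own, each comparison with PBS is also given in parts of the class. These are the class without cluster 13, cluster 8 alone (278, 187 and 97 cells), and cells with at least 10000 UMIs (714, 391 and 367 cells). Cluster 8 is the only colonocyte-like cluster with at least 50 cells of every library. By UMIs the PBS class was 66.9% cluster 13 and 31.0% cluster 8, so PBS without cluster 13 is mostly cluster 8. The PBS side of those settings is thus much the same. In BT mutant and BT WT cluster 8 gave 29.7% and 27.2% of class UMIs, so leaving out cluster 13 compares unlike mixes of clusters. Cluster 8 had the lowest colonocyte marker score of the class, 1.53 where a name needed 1.5, with stem and transit-amplifying markers next at 0.553.

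Levels are a gene's UMIs per 1000000 UMIs of a cell class in a library (CPM). The reads come from transcript 3' ends, so CPM is not divided by gene length. A gene was called higher or lower at a CPM ratio of 1.5-fold in either direction, with at least 20 UMIs in the pair of libraries. In colonocyte-like cells all 9 genes had enough UMIs in each comparison. BT mutant over BT WT, 1 of 9 was higher and 2 of 9 were lower. Of all 13104 genes tested there, 10.2% were higher and 15.1% lower. BT WT over PBS, 1 was higher and 5 were lower, against 26.1% and 12% of 12617 genes. BT mutant over PBS, 1 was higher and 5 were lower, against 16% and 10% of 12771 genes. The median log2 ratio of the 9 genes, taken after adding 10 CPM, was -0.20, -0.13 and -0.36 in these comparisons, against -0.03, 0.06 and 0.04 for all genes tested. With all epithelial cells pooled, 2, 0 and 1 genes were higher and 2, 5 and 5 lower, against 10.7%, 18.5% and 10.5% of all genes higher and 14.8%, 14% and 12.4% lower. The comparisons with PBS share the PBS library. Scaling by median ratios would move the median gene by 0.09, -0.19 and -0.10 on the log2 scale, and the folds below are to be read beside that shift.

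**Figure D1:**
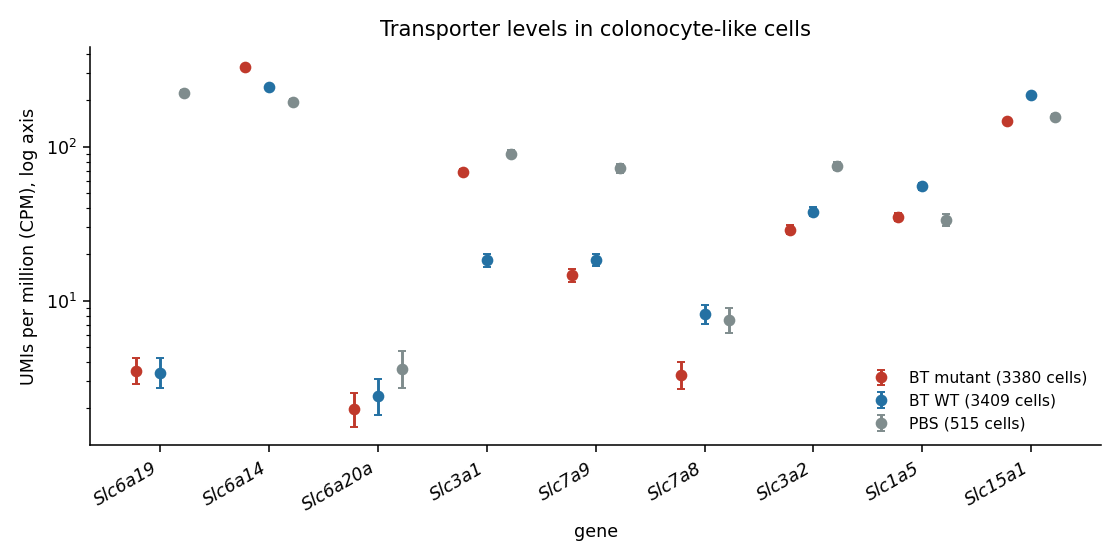
Levels of the 9 transporter genes in colonocyte-like cells, in CPM on a log axis, in the BT mutant, BT WT and PBS libraries. Bars are exact 95% Poisson intervals. Slc6a19 stands at 3.51 CPM in BT mutant and 3.41 CPM in BT WT, against 224 CPM in PBS, and Slc3a1 is lowest in BT WT, at 18.2 CPM.

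The promoters of Slc6a19, Slc3a1 and Slc7a9 are shown because these 3 apical genes had the lowest ratios of BT WT to PBS of the 9 in colonocyte-like cells. Each stretch covers 250 bases before and 50 after the start in RefSeq (GRCm38.p6), and runs 5′ to 3′ on the gene's strand. Capitals mark matches, on either strand, to the letters of a GATA motif (AGATAA), a CDX core (TTTATNG), an HNF4 motif (CAAAGTCCA) or an HNF1 half-site (GTTAAT).
Slc6a19, chr13:73692587-73692886, minus strand: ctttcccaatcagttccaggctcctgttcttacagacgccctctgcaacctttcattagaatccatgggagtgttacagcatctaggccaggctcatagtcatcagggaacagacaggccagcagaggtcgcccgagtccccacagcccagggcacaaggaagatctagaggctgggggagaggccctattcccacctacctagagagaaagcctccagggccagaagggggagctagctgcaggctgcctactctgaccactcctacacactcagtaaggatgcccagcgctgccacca
Slc3a1, chr17:85028097-85028396, plus strand: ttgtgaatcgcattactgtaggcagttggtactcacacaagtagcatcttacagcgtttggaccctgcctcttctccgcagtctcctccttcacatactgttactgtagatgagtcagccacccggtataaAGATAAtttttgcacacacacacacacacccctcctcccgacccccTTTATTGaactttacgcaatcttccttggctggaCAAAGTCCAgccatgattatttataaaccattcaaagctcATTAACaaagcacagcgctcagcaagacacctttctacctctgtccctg
Slc7a9, chr7:35448842-35449141, plus strand: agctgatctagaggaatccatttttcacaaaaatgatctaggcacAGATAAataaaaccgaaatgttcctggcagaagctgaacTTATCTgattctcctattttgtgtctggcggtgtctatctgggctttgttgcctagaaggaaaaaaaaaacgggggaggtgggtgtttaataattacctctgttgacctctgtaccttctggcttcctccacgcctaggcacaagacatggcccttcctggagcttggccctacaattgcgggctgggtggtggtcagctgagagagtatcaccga

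The Slc3a1 stretch held all 4 motifs: GATA 119 bases before the start, the CDX core 73 bases before it, HNF4 39 bases before it, and the HNF1 half-site, read on the minus strand, at base 2 after it. The Slc7a9 stretch held the GATA letters at 205 and 166 bases before the start, and the Slc6a19 stretch held none of the 4. RefSeq lists a second start of Slc7a9, whose stretch (35448929 to 35449228) held none of the 4 either. The stretch of Slc6a20a, not printed, held an HNF1 half-site 56 bases before its start. The RefSeq start of Slc6a19 lies inside the longer span that GENCODE gives the gene. No match overlapped another. The GATA letters occur in 11.2% of all 32851 mouse promoters of this length, the CDX core in 10.9%, the HNF1 half-site in 7.1% and the HNF4 letters in 0.475%. An ATF4 composite (TGATGNAA), found in 3.97%, was in none of the 3 stretches. These matches describe letters and do not show binding. Entries were found for 8 of the 9 genes.

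Slc6a19 is the main sodium-coupled carrier of neutral amino acids at the intestinal brush border (chromosome 13, 73679745 to 73704865, minus strand, GENCODE vM21 on GRCm38). It had 109 UMIs in BT mutant colonocyte-like cells, 84 in BT WT and 3312 in PBS. These are 3.51 CPM (2.88 to 4.23), 3.41 CPM (2.72 to 4.22) and 224 CPM (217 to 232). Both colonized libraries were far below PBS, and their intervals overlap each other. The level was 63.9-fold lower in BT mutant than in PBS (52.8 to 78.1) and 65.9-fold lower in BT WT than in PBS (53.03 to 82.8). At least 1 UMI was seen in 2.25% of BT mutant cells, 1.35% of BT WT cells and 66.6% of PBS cells. With every cell thinned to 1000 UMIs, which left out 160, 140 and 34 shallower cells, the shares were 0.528% (0.308 to 0.844), 0.245% (0.106 to 0.482) and 22.9% (19.2 to 26.9).

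Cluster 13 gave 97.0% of the PBS UMIs of Slc6a19. It stood at 325 CPM there, and the other 176 PBS cells of the class had 20.4 CPM. PBS cells that fell in clusters shared with the colonized libraries were few, but several carried the transcript. In cluster 9 the levels were 6.66 CPM (10 UMIs, 222 cells) in BT mutant, 4.08 CPM (7 UMIs, 204 cells) in BT WT and 520 CPM (29 UMIs, 14 cells) in PBS. In cluster 2 they were 4.57 CPM (25 UMIs) in BT mutant, 0 UMIs in BT WT and 249.2 CPM (9 UMIs, 29 cells) in PBS. In cluster 6 BT mutant had 5.51 CPM (70 UMIs), BT WT 12.5 CPM (55 UMIs) and PBS 58.3 CPM (11 UMIs, 10 cells), and BT mutant was below BT WT with a ratio of 0.442 (0.306 to 0.642). The shallow cluster 5 held 178 UMIs in PBS, at 204 CPM (175 to 236), and 0 UMIs in its 22 BT mutant and 41 BT WT cells, where the intervals reach 70.9 and 65.3 CPM. Among cells with at least 10000 UMIs the levels were 3.22 CPM in BT mutant, 5.19 CPM in BT WT and 221 CPM in PBS.

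Slc6a19 UMIs were also found outside the epithelium. B-like cells, which should lack it, had 0.611 CPM in BT mutant, 0 UMIs in BT WT (a limit of 0.755 CPM at 3 UMIs) and 26.4 CPM in PBS, where 8.99% of cells had a UMI, or 3.13% after thinning. The B-like level was 11.8% of the colonocyte-like level in PBS. The 20 colonocyte markers summed to 4.93%, 5.32% and 7.02% of their colonocyte-like level in B-like cells of BT mutant, BT WT and PBS. Median depths of B-like cells were 2782.5, 2851.5 and 3489 UMIs. In cluster 8 Slc6a19 had 0.108 CPM in BT mutant, 0.746 CPM in BT WT and 10.7 CPM in PBS. That PBS value is below the 26.4 CPM of B-like cells, as is the 20.4 CPM of PBS without cluster 13. The PBS cells of cluster 8 are deeper than B-like cells, with a median of 38161 UMIs, and the part of background was not tested. T-like cells had 1.38 CPM in BT mutant, 9.55 CPM (17 UMIs) in BT WT and 57.3 CPM in PBS. The BT WT colonocyte-like level of 3.41 CPM is below that T-like level. It is above the limit of B-like cells, and BT WT fibroblast-like cells had 0 UMIs. In cluster 6 BT WT had 12.5 CPM (55 UMIs), above the T-like level. The 58.3 CPM of the 10 PBS cells in cluster 6 is close to the PBS T-like level and cannot be told apart from it. The part of background in these levels was not tested. Across clusters the genes most like Slc6a19 included Abcc2 (r = 0.97) and Apoc2 (0.94), from log2 CPM over 29 epithelial cluster sums that share libraries and depth.

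Slc3a1 and Slc7a9 are the heavy and light chains of the apical exchanger for cystine and cationic amino acids (chromosome 17, 85028376 to 85064236, plus strand, and chromosome 7, 35448796 to 35466036, plus strand). Slc3a1 had 68.2 CPM (65.4 to 71.2, 2120 UMIs) in BT mutant, 18.2 CPM (16.6 to 20.01, 450 UMIs) in BT WT and 90.2 CPM (85.4 to 95.2, 1332 UMIs) in PBS. BT WT was the low library, and the 3 intervals do not overlap. The ratio of BT mutant to BT WT was 3.74 (3.38 to 4.15), and Slc3a1 was the only one of the 9 genes called higher in that comparison. BT WT was 4.94-fold lower than PBS (4.44 to 5.51).

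The higher Slc3a1 level in BT mutant than in BT WT was seen in each of the 6 colonocyte-like clusters with at least 50 cells of both libraries. In cluster 6, the deep cluster led by Tmigd1 and Car1, it had 125 CPM in BT mutant and 54.4 CPM in BT WT, a ratio of 2.29 (2.002 to 2.64). Cluster 9 had 51.3 CPM in BT mutant and 16.9 CPM in BT WT, and cluster 2 had 48.6 CPM and 20.8 CPM in the same order. The levels were 14.1 CPM in BT mutant and 5.67 CPM in BT WT in cluster 8, 18.8 and 11.3 CPM in cluster 0, and 42.0 and 6.86 CPM in cluster 11, where BT WT had 1 UMI. The ratios ran from 1.67 to 6.12, and the lowest, in cluster 0, has an interval that starts at 1.01. After thinning, 4.94% of BT mutant cells and 0.887% of BT WT cells had a UMI.

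Against PBS the Slc3a1 result depended on the PBS-only cluster. Without it, PBS was mostly cluster 8 by UMIs and stood at 15.3 CPM, below both BT mutant (68.2 CPM) and BT WT (18.2 CPM). The lower BT WT level was then no longer seen. In cluster 8 alone the levels were 14.1 CPM in BT mutant, 5.67 CPM in BT WT and 12.2 CPM in PBS, with BT WT 2.16-fold lower than PBS. Cells with at least 10000 UMIs had 74.7 CPM in BT mutant, 23.4 CPM in BT WT and 89.6 CPM in PBS, so BT WT was the low library there as in the whole class. The gene most like Slc3a1 over the 29 sums was Tmigd1, with r = 0.94, followed by Mep1b (0.88), a brush border protease, and Pdk4 (0.88).

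Slc7a9 had 14.6 CPM (13.3 to 16.02, 454 UMIs) in BT mutant, 18.3 CPM (16.7 to 20.1, 452 UMIs) in BT WT and 72.2 CPM (68.0 to 76.7, 1067 UMIs) in PBS. Both colonized libraries lay below PBS, by 4.94-fold (4.42 to 5.53) in BT mutant and 3.94-fold (3.53 to 4.41) in BT WT. The ratio of BT mutant to BT WT was 0.798, within the 1.5-fold limit, against 3.74 for its heavy chain. Without cluster 13 the PBS level was 10.2 CPM, below both colonized libraries. In cluster 8 the levels were 0.974, 3.13 and 5.03 CPM in BT mutant, BT WT and PBS, and in PBS this is below the 8.88 CPM of B-like cells. Among cells with at least 10000 UMIs they were 10.02, 16.4 and 70.7 CPM, with both colonized libraries below PBS as in the whole class. Of BT mutant cells with a Slc3a1 UMI, 20.03% also had one of Slc7a9, against 7.497% of those without, at median depths of 15443 and 3105 UMIs. In BT WT these shares were 24.9% and 8.29%, and in PBS 67.4% and 24.9%. Cells with a Slc3a1 UMI were the deeper ones in each library, and the part of depth in these shares was not tested. Tmem37 was most like Slc7a9 over the 29 sums (r = 0.91), then Ces2a (0.89) and Acot4 (0.88).

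**Figure D2:**
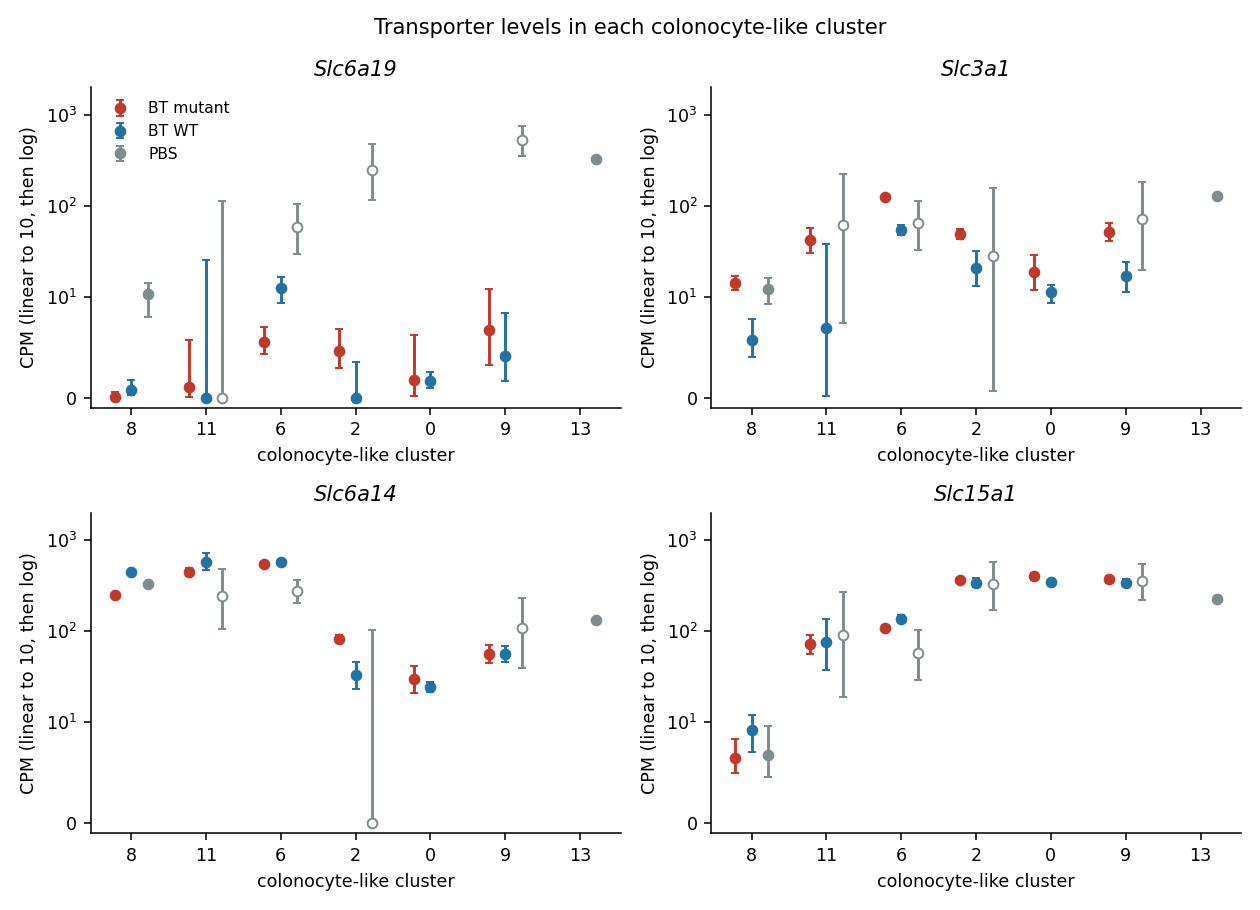
Levels of 4 transporter genes in each colonocyte-like cluster, in CPM (linear up to 10 CPM, then logarithmic), for BT mutant, BT WT and PBS. Bars are exact 95% Poisson intervals, open points rest on fewer than 50 cells and groups under 10 cells are left out. Slc3a1 is higher in BT mutant than in BT WT in all 6 clusters with both, and in the colonized libraries Slc6a14 is highest in clusters 6, 8 and 11 and Slc15a1 in clusters 0, 2 and 9.

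Slc6a14 carries neutral and cationic amino acids across the apical membrane with sodium and chloride, and is known as a carrier of the distal gut (chromosome X, 21714896 to 21742355, plus strand). It was the most abundant of the 9 by CPM of the class total in colonocyte-like cells of both colonized libraries, though not with equal weight per cell. The levels were 331 CPM (324 to 337) in BT mutant, 245 CPM (239 to 251) in BT WT and 196 CPM (189 to 203) in PBS, and the intervals do not overlap. Only BT mutant over PBS passed 1.5-fold, at 1.69 (1.62 to 1.76). Slc15a1, the proton-coupled carrier of small peptides (chromosome 14, 121459621 to 121505252, minus strand), had 146 CPM (142 to 151) in BT mutant, 215 CPM (210 to 221) in BT WT and 156 CPM (149 to 162) in PBS. None of its 3 ratios passed 1.5-fold in the whole class, and those with PBS moved with the cells used. Without cluster 13 the PBS level was 17.2 CPM, below the 22.7 CPM of PBS B-like cells, and BT mutant and BT WT stood 8.51-fold and 12.5-fold above it. By UMIs that PBS remainder is mostly cluster 8, the colonocyte-like cluster poorest in Slc15a1, which is a smaller part of the colonized classes. Within cluster 8 BT mutant over PBS was 0.958 and BT WT over PBS was 1.36. Among cells with at least 10000 UMIs Slc15a1 had 69.0 CPM in BT mutant, 99.95 CPM in BT WT and 149.3 CPM in PBS, where BT mutant over PBS was 0.462 and BT WT over PBS, at 0.669, was within the limit.

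These pooled levels mix clusters with different levels of both genes, which did not vary together over the 29 sums (r = -0.09). Slc6a14 was high in clusters 6, 8 and 11, with 546, 251 and 446 CPM in BT mutant and 577, 450 and 583 CPM in BT WT. It was low in clusters 0, 2 and 9, with 29.9, 82.9 and 56.6 CPM in BT mutant and 24.2, 33.1 and 55.9 CPM in BT WT. Slc15a1 had 400, 365 and 370 CPM in BT mutant and 346, 343 and 343 CPM in BT WT in clusters 0, 2 and 9, and 6.49, 9.25 and 6.78 CPM in BT mutant, BT WT and PBS in cluster 8. The cluster 8 levels of Slc15a1 are below those of B-like cells, at 13.8, 12.3 and 22.7 CPM. Cluster 8 cells are deeper than B-like cells, with medians of 24884, 24313 and 38161 UMIs, and the part of background was not tested. The PBS cells of cluster 9 had 359 CPM of Slc15a1 (20 UMIs), and cluster 13 had 224 CPM of Slc15a1 and 132 CPM of Slc6a14.

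Within clusters the BT mutant and BT WT levels of Slc15a1 were closer than in the pool. The ratio was 0.679 (0.653 to 0.707) over the class, and between 0.702 and 1.16 in the 6 clusters, 3 above 1 and 3 below. Cluster 0, rich in Slc15a1, gave 3.76% of the class UMIs in BT mutant and 43.1% in BT WT, while cluster 6, rich in Slc6a14, gave 40.9% in BT mutant and 17.9% in BT WT. Slc6a14 differed between the libraries by cluster: BT mutant over BT WT was 2.51 (1.78 to 3.64) in cluster 2 and 0.558 (0.529 to 0.590) in cluster 8. In cluster 8 the BT mutant level was also below the PBS level of 333 CPM. Without cluster 13 the PBS class, then mostly cluster 8 by UMIs, had 325 CPM, against 331 CPM in BT mutant. The call of BT mutant over PBS did not hold in either of these overlapping settings. Among cells with at least 10000 UMIs it did, with 418 CPM in BT mutant, 437 CPM in BT WT and 199.7 CPM in PBS, ratios to PBS of 2.09 and 2.19. At a mitochondrial limit of 10%, too, both colonized libraries were above PBS, at 273 and 436 CPM against 124 CPM. With equal weight per cell the levels were 183, 89.9 and 131 CPM in BT mutant, BT WT and PBS. After thinning to 1000 UMIs they were 191, 96.7 and 139 CPM in the same order. In both settings BT WT was below PBS, and BT mutant over PBS was within the limit. Slc15a1 was above Slc6a14 in every library in both settings. With equal weight per cell it had 282, 308 and 244 CPM in BT mutant, BT WT and PBS, and after thinning 299, 308 and 222 CPM. The genes most like Slc15a1 over the 29 sums were Slco2a1 (r = 0.99), the surface colonocyte anhydrase Car4 (0.98) and Nt5e (0.98). Those most like Slc6a14 were Mettl7b (0.95), Mgat4c (0.94) and Hsd3b3 (0.93).

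Slc6a20a, the sodium-coupled carrier of proline and other imino acids (chromosome 9, 123634770 to 123678885, minus strand), was the rarest of the 9 in BT mutant, BT WT and PBS colonocyte-like cells. It had 61, 59 and 53 UMIs there, or 1.96 CPM (1.502 to 2.52), 2.39 CPM (1.82 to 3.09) and 3.59 CPM (2.69 to 4.69). BT mutant was 1.83-fold lower than PBS (1.24 to 2.68). BT WT was 1.5004-fold lower than PBS, at the limit itself, with an interval of 1.02 to 2.21. Without cluster 13 the PBS level was 6.34 CPM. Cluster 8 had 2.49 CPM in BT mutant, 4.32 CPM in BT WT and 5.69 CPM in PBS. Cells with at least 10000 UMIs had 2.45, 3.51 and 3.59 CPM in the same order, and neither colonized library was 1.5-fold below PBS there. Over the 29 epithelial sums its level varied with that of Slc6a14 (r = 0.79). Its near copy Slc6a20b had 13, 8 and 1 UMIs in this class, and reads shared between the copies may have been split or dropped. Slc6a20a overlaps Ccr9, Gm17120 and Gm17200 on the opposite strand, as Slc6a19 does the antisense Slc6a19os and Slc3a1 does Prepl. Whether strand was used in the authors' counting is not given in the sources used here. The part of reads from these opposite-strand genes in the counts was not tested.

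Slc3a2 and Slc7a8 form the basolateral exchanger of large neutral amino acids, and Slc3a2 also serves other light chains in most growing cells. Slc3a2 (chromosome 19, 8706882 to 8723369, minus strand) had 28.9 CPM (27.1 to 30.9) in BT mutant colonocyte-like cells, 37.9 CPM (35.5 to 40.4) in BT WT and 75.02 CPM (70.7 to 79.6) in PBS. Both colonized libraries lay below PBS, BT mutant by 2.59-fold (2.37 to 2.83) and BT WT by 1.98-fold (1.81 to 2.16). In cluster 8 the levels were 29.9, 35.3 and 39.4 CPM in BT mutant, BT WT and PBS. Without cluster 13 the PBS class, then mostly cluster 8 by UMIs, had 41.3 CPM. Neither colonized library was 1.5-fold below PBS in either of these overlapping settings. Among cells with at least 10000 UMIs both were, at 26.4 CPM in BT mutant and 37.4 CPM in BT WT against 71.2 CPM in PBS. Lgmn was most like Slc3a2 over the 29 sums (r = 0.78), then Abcc2 (0.67) and Scd1 (0.66). Slc7a8 (chromosome 14, 54722209 to 54781946, minus strand) had 3.28 CPM (2.68 to 3.99) in BT mutant, 8.15 CPM (7.06 to 9.36) in BT WT and 7.45 CPM (6.12 to 8.98) in PBS. BT mutant was the low library, 2.48-fold below BT WT (1.95 to 3.18) and 2.27-fold below PBS (1.72 to 2.999). It was below BT WT in each of the 4 clusters with 20 UMIs or more, with ratios of 0.0915 to 0.784. Cluster 8 had the same order of BT mutant below both others, at 6.28, 13.4 and 11.2 CPM in BT mutant, BT WT and PBS. So did cells with at least 10000 UMIs, at 3.76, 10.6 and 7.525 CPM, and without cluster 13 the PBS level was 11.2 CPM. The genes most like Slc7a8 were Lta4h (r = 0.69), Nr5a2 (0.69) and Mkks (0.68).

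Slc1a5 exchanges small neutral amino acids and is a main route for glutamine (chromosome 7, 16781340 to 16798274, plus strand). Colonocyte-like cells had 34.7 CPM (32.7 to 36.9) in BT mutant, 55.3 CPM (52.4 to 58.3) in BT WT and 33.7 CPM (30.8 to 36.7) in PBS. BT WT was the high library: BT mutant was 1.59-fold lower (1.47 to 1.72), and BT WT over PBS was 1.64 (1.48 to 1.82). With median-ratio scaling the levels were 34.6, 51.7 and 35.9 CPM in BT mutant, BT WT and PBS, and neither ratio passed 1.5-fold. BT mutant was below BT WT in all 6 clusters, by 1.5-fold or more in 5, and the ratio of 0.982 (0.876 to 1.10) in cluster 8 was within the limit. In cluster 8 PBS had 84.2 CPM, above BT mutant (76.9 CPM) and BT WT (78.3 CPM). Without cluster 13, which had 10.3 CPM, the PBS class stood at 80.8 CPM. By UMIs that PBS class is mostly cluster 8, and the higher BT WT level was not seen in either of these overlapping settings. Among cells with at least 10000 UMIs it was, with 38.6 CPM in BT mutant, 55.6 CPM in BT WT and 33.2 CPM in PBS, a ratio of BT WT to PBS of 1.675. The ratio of BT mutant to BT WT, 0.694, was within the limit there. B-like cells had 55.0, 57.4 and 67.9 CPM of Slc1a5 in BT mutant, BT WT and PBS, above the colonocyte-like level of each library. The part of RNA from other cells in the colonocyte-like levels was not tested.

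**Figure D3:**
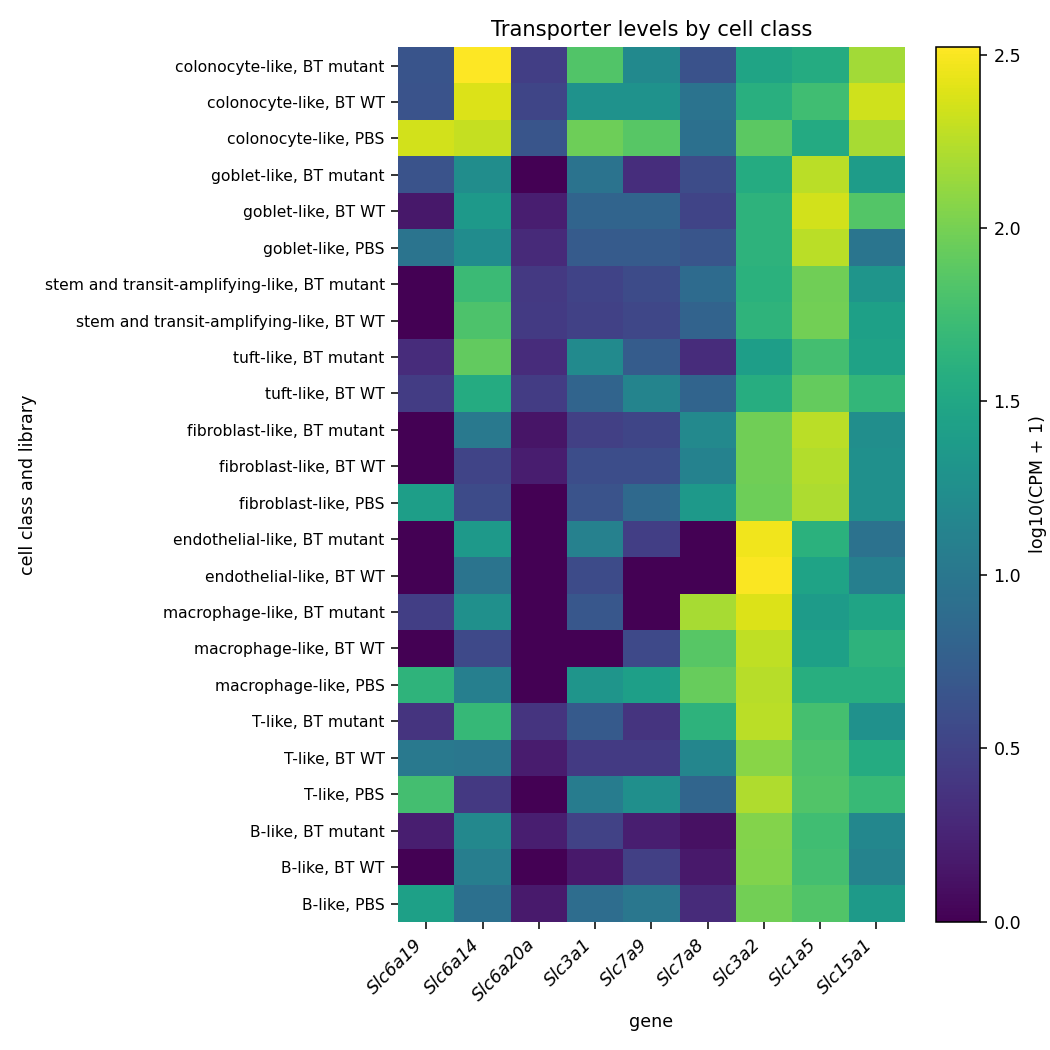
Level of each transporter gene as log10(CPM + 1) in the cell classes with at least 50 cells, with BT mutant above BT WT above PBS within each class. Slc6a14, Slc15a1, Slc3a1 and Slc7a9 are highest in colonocyte-like cells, Slc1a5 in goblet-like and fibroblast-like cells, Slc7a8 in macrophage-like cells and Slc3a2 in endothelial-like cells.

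Epithelial cells, named or not, gave between 83.8% and 98.5% of all UMIs of Slc6a19, Slc6a14, Slc6a20a, Slc3a1, Slc7a9 and Slc15a1 in each library. They gave 47.6%, 51.6% and 55.7% of Slc3a2 in BT mutant, BT WT and PBS, 44.2%, 73.6% and 57.6% of Slc7a8, and 67.7%, 80.7% and 49.7% of Slc1a5. The lowest share of the first 6 genes, Slc6a19 in BT WT (88 of 105 UMIs), is close to that of Slc1a5 there. Epithelial cells also held a large part of all kept UMIs, which these shares do not take out. Colonocyte-like cells alone had 31063293 of 45696644 UMIs in BT mutant, 24669221 of 45040140 in BT WT and 14769669 of 30904239 in PBS. Slc3a2 reached 291 CPM in BT mutant and 321 CPM in BT WT endothelial-like cells, and 241, 190 and 176 CPM in macrophage-like cells of BT mutant, BT WT and PBS. T-like cells had 179, 116 and 166 CPM and B-like cells 111, 109 and 94.5 CPM in the same order, all above the 75.02 CPM of PBS colonocyte-like cells. Slc7a8 was at 153 CPM (121.5 to 191) in BT mutant macrophage-like cells, 72.8 CPM (48.4 to 105) in BT WT and 85.0 CPM (57.3 to 121.3) in PBS. The BT mutant interval lies above both others, and only just above that of PBS.

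Slc1a5 was higher in goblet-like cells, the mucus makers, than in colonocyte-like cells of every library. Its goblet-like levels were 180 CPM (160 to 201) in BT mutant, 220 CPM (209 to 232) in BT WT and 179 CPM (164 to 195) in PBS, over 146, 853 and 189 cells, and no ratio between them passed 1.5-fold. Over the 29 sums the genes most like it were Atp13a3 (r = 0.93), the goblet cell stress sensor Ern2 (0.91) and Hid1 (0.90). Fibroblast-like cells had 180, 167 and 161 CPM in BT mutant, BT WT and PBS. The 37 PBS adipocyte-like cells had 731 CPM, with 1 such cell in each colonized library. Adipocyte markers summed to 29.1, 19.2 and 108 CPM in colonocyte-like cells of BT mutant, BT WT and PBS, and their part in the levels of Slc1a5 was not tested.

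In goblet-like cells 7, 8 and 6 of the 9 genes had 20 UMIs in BT mutant over BT WT, BT WT over PBS and BT mutant over PBS. They gave 0, 1 and 2 higher and 2, 2 and 1 lower, where 27.4%, 19% and 12.2% of all genes were higher and 22.6%, 23.4% and 10.4% lower. The widest gap on the higher side was in Slc15a1, with 23.6 CPM (16.9 to 32.0) in BT mutant, 69.1 CPM (62.9 to 75.8) in BT WT and 8.58 CPM (5.60 to 12.6) in PBS. BT WT over PBS was 8.06 (5.43 to 12.5), and BT mutant was 2.93-fold below BT WT (2.12 to 4.13). Goblet-like cluster 4 held 85 BT mutant, 770 BT WT and 112 PBS cells, and Slc15a1 was at 77.7, 91.5 and 14.0 CPM there, so the ratio of BT mutant to BT WT was 0.849 within it. The PBS levels in goblet-like cells and in cluster 4 are below the 22.7 CPM of PBS B-like cells. Those B-like cells are shallower than the PBS cells of cluster 4 (median of 8473 UMIs), and the part of background was not tested. In cluster 18 the levels were 8.26, 5.15 and 5.52 CPM. The 20 colonocyte markers summed to 4661, 10851 and 4302 CPM in goblet-like cells of BT mutant, BT WT and PBS, in the same order as Slc15a1, and their part in it was not tested.

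Stem and transit-amplifying-like cells could be compared between BT mutant (99 cells) and BT WT (120 cells). Of the 5 genes with 20 UMIs, 0 passed 1.5-fold, where 7.95% of all genes were higher and 13.7% lower. Slc1a5 led there with 94.1 CPM in BT mutant and 95.8 CPM in BT WT, followed by Slc6a14 with 50.9 and 64.8 CPM in the same order. Tuft-like cells (124 and 85) had 1 of 4 genes higher, against 13.9% of all genes, and 1 lower, against 15.1%.

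**Figure D4:**
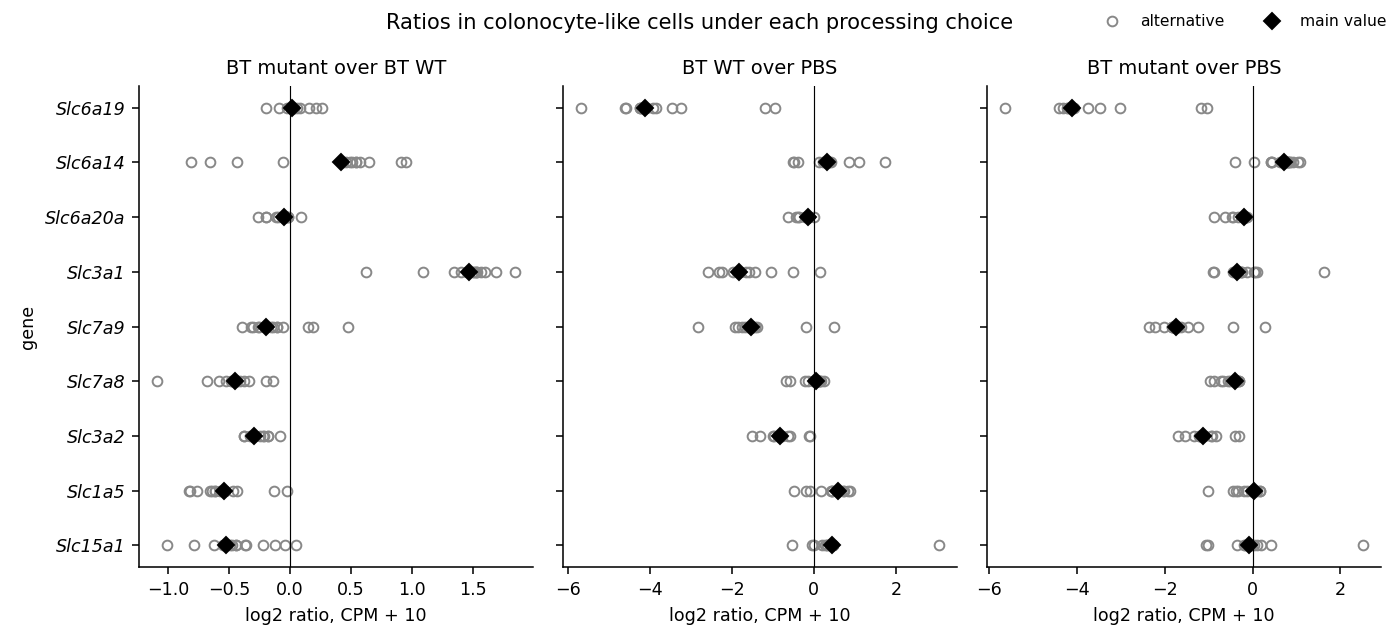
Log2 ratio of each transporter gene in colonocyte-like cells, with 10 CPM added unless the pseudocount was the choice varied. Diamonds are the values reported and open circles the 17 other processing choices, for BT mutant over BT WT, BT WT over PBS and BT mutant over PBS. Slc6a19 lies below 0 against PBS for every choice, and Slc3a1 lies above 0 in BT mutant over BT WT for every choice.

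Of 30 other amino acid and peptide carriers, 23 had enough UMIs in BT mutant over BT WT, with 3 higher and 5 lower. Of 22 in BT WT over PBS, 6 were higher and 6 lower, and of 22 in BT mutant over PBS, 6 were higher and 8 lower. These counts, and those of the lists that follow, stand beside 10.2%, 26.1% and 16% of all genes higher and 15.1%, 12% and 10% lower in BT mutant over BT WT, BT WT over PBS and BT mutant over PBS. The most abundant, the sodium-coupled glutamine carrier Slc38a2, had 247, 417 and 432 CPM in BT mutant, BT WT and PBS. Slc1a4, a neutral exchanger related to Slc1a5, had 5.38, 3.81 and 33.0 CPM and was the gene of this list with the largest log2 ratio against PBS once 10 CPM were added. Slc15a2, the second peptide carrier, had 7.66, 22.2 and 2.78 CPM, with BT mutant 2.90-fold below BT WT.

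Among 12 brush border proteins and peptidases found in the files, 4 were higher and 1 lower of 9 tested in BT mutant over BT WT, 0 and 6 of 8 in BT WT over PBS, and 0 and 5 of 10 in BT mutant over PBS. Their median log2 ratios were 0.33, -1.08 and -0.30, against the medians of all genes given above. The meprin subunit Mep1b, with 188, 98.7 and 265 CPM in BT mutant, BT WT and PBS, shared the order of Slc3a1. Its partner Mep1a had 510, 403 and 351 CPM. Enpep, an aminopeptidase, had 1.38, 3.08 and 55.2 CPM.

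Among Atf4, the factor induced by amino acid shortage, and its targets, 5 of 19 were higher and 2 lower in BT mutant over BT WT, 1 and 6 of 18 in BT WT over PBS, and 1 and 7 of 20 in BT mutant over PBS. Atf4 itself had 148, 191 and 192 CPM in BT mutant, BT WT and PBS, and the stress factor Nupr1 was 2.77-fold lower in BT mutant than in BT WT, the largest log2 ratio of this list once 10 CPM were added. Of 16 genes of amino acid sensing by mTORC1, 2, 0 and 0 were higher and 0, 4 and 1 lower in the same comparisons, with the most abundant, Lamtor2, at 217, 164 and 262.5 CPM in BT mutant, BT WT and PBS. Of 17 amino acid catabolic genes, 4, 2 and 2 were higher and 3, 4 and 4 lower, with the alanine transaminase Gpt at 31.4, 17.3 and 70.7 CPM in BT mutant, BT WT and PBS. Of 10 cytosolic peptidases, 1, 1 and 2 were higher and 0, 1 and 0 lower, with the dipeptidase Cndp2 at 109 CPM in BT mutant, 69.9 CPM in BT WT and 62.4 CPM in PBS. Of 12 regulators of absorptive cells, 0, 4 and 4 were higher and 0 lower, including Hnf4g with 29.0 CPM in BT mutant and 8.94 CPM in PBS.

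Markers of gut position and of other cells differed between the libraries beside these genes. The 10 ileal and jejunal enterocyte genes summed to 556, 524 and 911 CPM in BT mutant, BT WT and PBS. Against PBS, 6 of 8 were lower in BT WT, and 4 were lower and 2 higher of 8 in BT mutant. Their member Sis, the small intestinal sucrase, had 0.644, 0.324 and 19.2 CPM, while Lct had 0.0322 CPM in BT mutant, 0 UMIs in BT WT and 0.0677 CPM in PBS. Of the posterior Hox genes, 1 was higher and 1 lower of 3 tested in BT mutant over BT WT. In BT WT over PBS 1 was higher and 0 lower of 2, and in BT mutant over PBS 1 and 0 of 3. Hoxb13, a gene of the most distal colon, had 96.8, 216 and 135 CPM in BT mutant, BT WT and PBS. In the same order Hoxa13 had 41.6, 50.5 and 42.9 CPM, and Hoxa11 0.934, 0.284 and 0.271 CPM. Summed erythroid markers were at 109, 43.1 and 1.69 CPM, B cell markers at 18.0, 12.3 and 33.4 CPM, fibroblast markers at 33.6, 12.2 and 14.6 CPM, and goblet markers at 380, 2021 and 1851 CPM. Malat1 and Neat1, nuclear transcripts, summed to 32531, 57533 and 47862 CPM, and dissociation stress genes to 10813, 9936 and 11205 CPM. Paneth genes summed to 7.40, 4.58 and 2.44 CPM. The part of gut position, other cells and RNA quality in the levels of the 9 genes was not tested.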

How the data were processed

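Colon cells of 3 mouse libraries were processed with 10x Genomics 3' reagents of version 3, per the labels' protocols. Per the file headers, Cell Ranger 5.0.0 made the deposited matrices, whose values are raw UMI counts. STAR and the mm10 build come from the submitters' processing notes. No source used here gives the cell-calling rule, the annotation release or any doublet removal.

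Cells kept (300 genes or more, mitochondrial share up to 25%) were clustered together in scanpy 1.11.5 (2000 variable genes, 30 components, 15 neighbours, Leiden resolution 1) and named from marker genes (score of at least 1.5, at least 3 markers detected in 10% of cells). Mitochondrial, ribosomal, immunoglobulin, T cell receptor, sex-linked and haemoglobin genes, the 9 carriers and 30 other amino acid carriers were left out of clustering. The members and all gene lists were chosen with earlier results of these data known. The naming rule went through 3 versions after clusters were seen, of which the second is kept as an alternative (haemoglobin kept) and the first is not given. Members' levels by class were computed only with the last version, but Slc6a19 and Slc15a1 had shown among clusters' leading genes. The 5 added alternatives and the ratios within clusters were chosen after seeing the data. Scrublet scores were used only to remove the highest-scoring cells, at 0.8% per 1000 barcodes (301, 400 and 82 cells of BT mutant, BT WT and PBS), in an alternative, so doublets remain in the main values. UMIs were summed per class and library and divided by the class total. Named genes were the 9 carriers, the 3 genes most like each carrier with at least 200 UMIs, and from each list the most abundant gene and the one with the largest ratio; 1 gene that this rule names is not reported here. Slc6a20b, Enpep, Lct, Hoxa13 and Hoxa11 lie outside that rule and were named after their values were seen. Intervals were checked on simulated counts. Promoter motifs were searched as exact letters.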

Additional observations from a re-analysis of the deposited data

Results flagged for a closer look

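Slc6a14 and Slc7a9 had opposite differences between BT mutant and BT WT in different colonocyte-like clusters, each past 1.5-fold with an interval that excludes 1. For Slc6a14 the ratio of BT mutant to BT WT was 2.51 in cluster 2 and 0.558 in cluster 8. For Slc7a9 it was 1.75 in cluster 2, 0.490 in cluster 6 and 0.311 in cluster 8, where BT mutant had 9 UMIs and BT WT 21. Those cluster 8 levels were low, at 0.974 CPM in BT mutant and 3.13 CPM in BT WT. B-like cells had 0.611 and 2.01 CPM in the same order. With 1 library per group the difference between clusters was not tested.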

How the results depend on the processing

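Each log2 ratio was recomputed under 17 alternatives. Slc6a19 stayed below PBS in 17 of 17, between -5.64 and -1.04 for BT mutant and between -5.68 and -0.95 for BT WT. The weakest of these, -1.04 and -0.95, came from cluster 8 alone, where PBS had 10.7 CPM, below the 26.4 CPM of PBS B-like cells. Without the PBS-only cluster the PBS level, 20.4 CPM, was below that of PBS B-like cells as well. Slc3a1 stayed higher in BT mutant than in BT WT in 17 of 17, between 0.62 and 1.85. Called ratios changed sign for Slc1a5 in BT WT over PBS at a mitochondrial limit of 10% (-0.20), in cluster 8 alone (-0.094) and without the PBS-only cluster (-0.48), for Slc6a14 in BT mutant over PBS in cluster 8 alone (-0.39), and without the PBS-only cluster for Slc3a1 (0.16) and Slc7a9 (0.49) in BT WT over PBS and Slc7a9 in BT mutant over PBS (0.28). PBS without the PBS-only cluster is mostly cluster 8 by UMIs, so that setting and cluster 8 alone overlap. The cause of these changes was not tested. The number higher in BT mutant over BT WT, 1 in the main values, was 2 with no mitochondrial limit and with all epithelial clusters pooled, and 3 with equal weight per cell, cells thinned to 1000 UMIs and equal weight per cluster. The number lower, 2, was 1 with median-ratio scaling and at 2-fold, 3 in 5 other settings, and 4 in cluster 8 alone. In BT WT over PBS the number higher, 1, was 0 with median-ratio scaling, equal weight per cell, thinning, pooling, 2-fold and cluster 8 alone, and 2 with equal weight per cluster, without the PBS-only cluster and at 10000 UMIs. The number lower, 5, was 3 at 2-fold and in cluster 8 alone, and 2 without the PBS-only cluster. In BT mutant over PBS the number higher, 1, was 0 with equal weight per cell, thinning, equal weight per cluster, 2-fold and cluster 8 alone, and 2 without the PBS-only cluster. The number lower, 5, ran from 4 to 6. No paired analysis was possible because each group has 1 library. Leaving out a replicate was not possible for the same reason. Depth limits the low genes: Slc6a20a rests on 53 to 61 UMIs a library.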
